A study of Mus musculus with 38 samples.

Results

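Among the 12594 positions that the authors combined as c-Fos sites of depolarised mouse cortical neurons, 406 (3.22%) lay in 129 clusters of neighbouring sites. To find them, the positions were sorted along each chromosome, and neighbours 10 kb or less apart were joined into chains. Sites in chains of 3 or more are called clustered here. They are set against the 10400 solitary sites (82.6%), which had no other site within 10 kb, and the 1788 sites in 894 pairs (14.2%) lie between these classes. The members were chosen by the measured c-Fos positions, so gaps, spans and c-Fos peaks of the libraries behind the combined list are given as a description without a test.

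AP-1 is a transcription factor made of pairs of Fos and Jun family proteins, and neuronal activity induces several of them within hours. It binds mostly at enhancers, DNA elements far from promoters that raise transcription of their target genes. Active enhancers carry acetylated lysine 27 on histone H3 (H3K27ac), while the coactivator CBP and monomethylated lysine 4 (H3K4me1) mark enhancers more widely, and several enhancers can lie close together around one gene.

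The neurons were C57BL/6 cortical cultures from embryonic day 16.5, used after 7 days in vitro and silenced overnight with 1 µM TTX, a sodium channel blocker, and 100 µM DL-AP5, an NMDA receptor antagonist. They were then depolarised with KCl for 2 h or left silenced (unstimulated). Of 38 samples, 22 were chromatin immunoprecipitation (ChIP-seq) libraries of AP-1 proteins, 4 were made with an antibody to H3K27ac and 12 were of input DNA (not analysed here). c-Fos (antibodies sc52 and sc7202) and FosB (sc48) were mapped in biological samples 3 and 4 with KCl and unstimulated, JunB (sc46) in biological sample 4 only, and H3K27ac in biological samples 1 and 2, which the authors merged before calling peaks. Biological samples 5 and 6 all received KCl, together with c-Fos shRNA (mapped with sc52), FosB shRNA (mapped with sc48) or control shRNA (mapped with both). The labels tie the combined list to the 4 KCl sc52 libraries, those of samples 3 and 4 and the control shRNA ones of samples 5 and 6.

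A site was called held by a peak list when it lay inside one of its peaks. With peaks but no reads in the files, the depth of every library is unknown. The AP-1 lists ranged from 557 to 28885 peaks. The 95% intervals of single shares are Wilson intervals and those of differences are Newcombe intervals. Both cover counting error over sites only, and sites of 1 cluster can share a peak or an enhancer and are not independent. In bulk cultures, a site bound in some of the cells and a site bound weakly in all of them cannot be told apart. All positions are those of genome build mm9.

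Most clusters were trios. There were 114 clusters of 3 sites (342 sites), 11 of 4 sites (44 sites) and 4 of 5 sites (20 sites). The clusters spanned 2580 to 25623 bp from first to last site, with a median of 10977 bp and quartiles of 8201 and 13563 bp. The 277 gaps between neighbours within clusters ran from 644 to 9932 bp with a median of 4914 bp, against a median of 97972 bp between all neighbouring sites of the list. Only 5 of these gaps were under 1 kb, 35 were under 2 kb, 108 were 2 kb to under 5 kb and 134 were 5 kb or more. Clustered sites were listed as separate AP-1 peaks. Among the AP-1 lists made after KCl, only sc7202 of sample 3 had 2 neighbouring sites inside a single peak, for 2 of the 225 neighbour pairs in which it held both sites.

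The limit of 10 kb fell within a continuous range of distances. The longest gaps just inside it were 9932 bp in the cluster at chr5:145304030-145318225, 9923 bp on chromosome 13 and 9875 bp on chromosome 19. Just outside it, gaps of 10099 bp at chr18:77454321-77465475, 10123 bp on chromosome 4 and 10169 bp on chromosome 2 each kept 3 sites from forming a cluster. In 11 clusters the longest gap lay within 500 bp of the limit, and 9 chains missed it by no more than 500 bp. A solitary site had its nearest neighbour at a median distance of 62196 bp, and the closest was at 10004 bp.

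The clusters were spread over all 19 autosomes in unequal shares. On chromosome 13, 41 of 637 sites (6.44%) were clustered, in 13 clusters, and on chromosome 14, 36 of 611 (5.89%), in 11 clusters. Chromosomes 17 (4.61%), 12 (4.08%) and 6 (4.05%) followed, and the lowest shares of an autosome were on chromosomes 5 (1.53%) and 4 (1.82%). The X chromosome had 0 clustered sites of 140, which allows a share of up to 2.14% by a floor of 3 counts of the total. These shares follow from the positions that chose the members and were not tested.

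**Figure D1:**
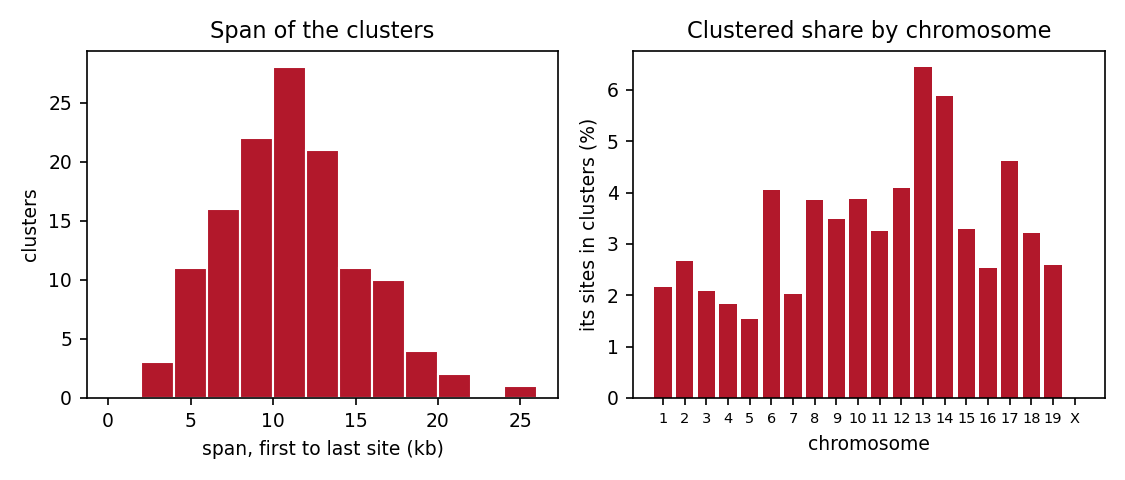
Left, number of clusters (vertical axis) by span from first to last site in kb (horizontal axis, bins of 2 kb). Right, share of the combined c-Fos sites of each chromosome that were clustered, in percent. Spans centre near their median of 10977 bp, and chromosomes 13 and 14 have the highest shares, 6.44% and 5.89%, while the X chromosome has none.

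In the 4 sc52 lists behind the combined positions, the shares of clustered and solitary sites differed by less than 5 points. They were held in 79.3% of cases in KCl sample 3 (solitary 79.7%, all sites 80.1%), 34.2% in KCl sample 4 (solitary 29.6%, all 30%), 95.3% in control shRNA sample 5 (solitary 92.6%, all 93%) and 86.9% in control shRNA sample 6 (solitary 83.7%, all 83.9%). All 4 lists held 122 clustered sites (30%), against 24.7% of solitary sites and 25.2% of all sites, and 99.3% of clustered and 99.2% of solitary sites were in at least 2 of them. Among the held sites, the authors' peak scores had median percentiles within their list of 63.1 at clustered and 57.2 at solitary sites in sample 3, 51.2 and 53.2 in sample 4, 68.3 and 59.6 in sample 5, and 62.1 and 61.3 in sample 6. The peaks at clustered sites thus ranked higher in 3 of 4 lists and lower in the list of sample 4. Since these lists chose the members, nothing is read from these values.

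A second c-Fos antibody, sc7202, was not among the libraries that the labels tie to the combined list, but it was used on the same cultures. After KCl it held 366 of 406 clustered sites (90.1%) in sample 3, against 87.1% of solitary and 87.6% of all sites. In sample 4 it held 295 clustered sites (72.7%), against 67% of solitary and 67.6% of all sites. Clustered sites stood above solitary ones in 2 of 2 libraries, by a mean of 4.39 ± 1.84 percentage points (SD, n = 2), and the exact two-sided sign-flip test over libraries gave p = 0.5, the smallest value that 2 libraries allow. Among sites held by all 4 sc52 lists the mean difference was 0.21 points. All 6 KCl c-Fos lists, both antibodies together, held 118 clustered sites (29.1%), against 23.8% of solitary and 24.3% of all sites.

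FosB, a Fos family protein that also pairs with Jun proteins at AP-1 sites, was mapped after KCl in 4 cultures. In KCl sample 3 its list held 105 clustered sites (25.9%), against 24.4% of solitary and 24.9% of all sites. In KCl sample 4 it held 60 (14.8%), against 15.7% of solitary and 15.8% of all sites. With control shRNA it held 307 (75.6%) in sample 5, against 73.2% of solitary and 74.1% of all sites, and 213 (52.5%) in sample 6, against 47.2% of solitary and 47.7% of all sites. The 4 lists thus held very different shares of the clusters, from 14.8% to 75.6%, and in each of them solitary sites lay within a few points of the clustered ones. The mean difference was 2.06 ± 2.56 points (SD, n = 4 libraries), with the clustered share higher in 3 of 4, and the exact two-sided sign-flip test gave p = 0.25, where 4 libraries allow no less than 0.125. Within single libraries the widest gap was 5.3 points in sample 6, with a 95% interval of 0.348 to 10.2. List length and peak width moved with these shares: the control shRNA list of sample 5 had 22933 peaks with a median width of 767 bp, against 187 to 254 bp in the other 3 lists. Their part in the shares was not tested.

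FosB was rarely listed at the same site in every culture. Of the 406 clustered sites, 72 were in none of the 4 KCl FosB lists, 122 in 1, 108 in 2, 69 in 3 and 35 (8.62%) in all 4. The share in all 4 was 8.21% at solitary sites and 8.45% over all sites, and the share in at least 1 was 82.3% at clustered sites, 81.9% at solitary sites and 82.4% over all sites. All 7 KCl lists of FosB, JunB and sc7202 held 35 clustered sites (8.62%), against 8.01% of solitary and 8.25% of all sites. At the level of clusters, all 129 had at least 1 site in some FosB list. Such counts rise with the number of sites in a cluster, and no matched groups of other sites were counted. In the longest list, control shRNA sample 5, 128 of 129 clusters had a held site and 50 were held at every site, while in KCl sample 4 these numbers were 50 and 2.

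JunB, a Jun family partner of the Fos proteins, was mapped after KCl in sample 4 only and has no replicate check. Its list held 264 clustered sites (65%), against 66.5% of solitary and 66.7% of all sites, a difference of -1.43 points with an interval of -6.27 to 3.14. Of the 129 clusters, 123 had at least 1 site in a JunB peak and 38 had all of their sites in one. These counts were not set against matched groups of other sites. Among the 114 trios, 33 were held at all 3 sites, 46 at 2, 30 at 1 and 5 at none.

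**Figure D2:**
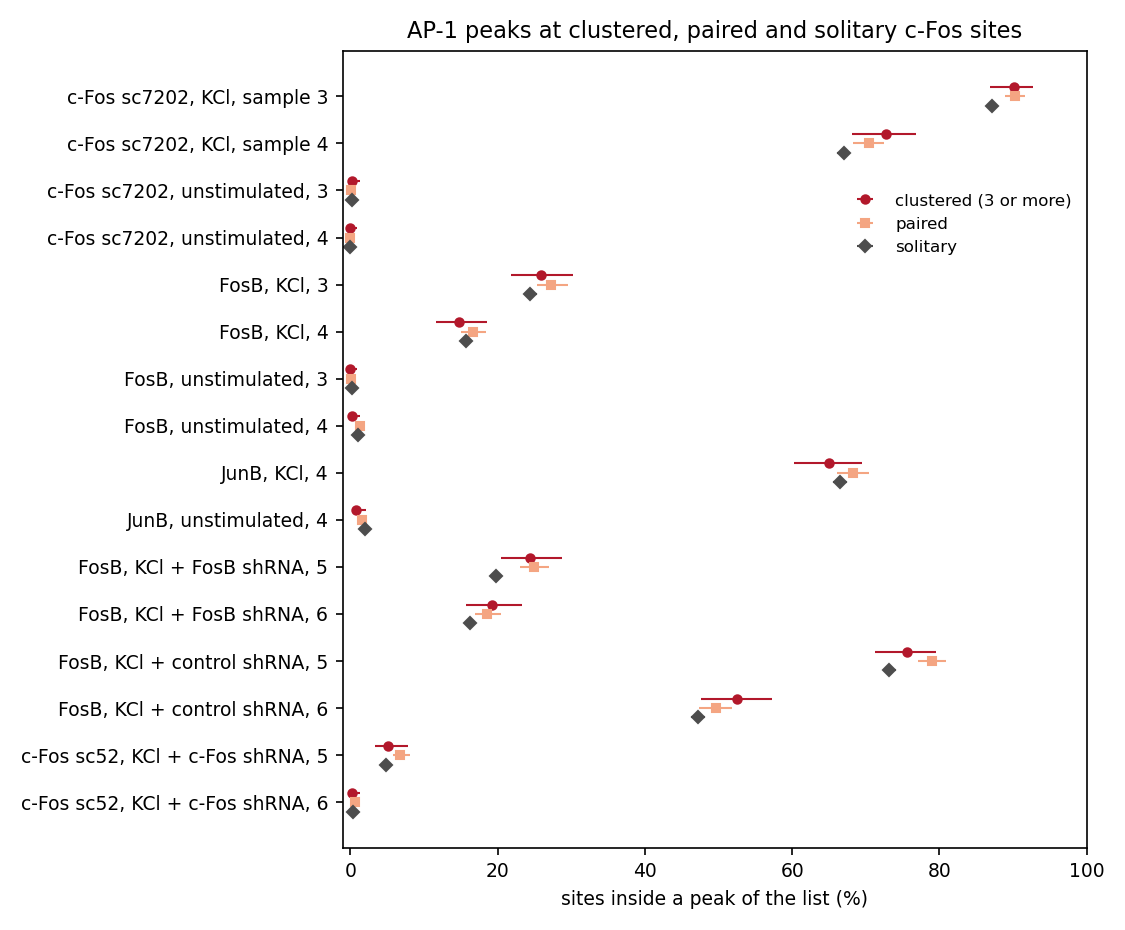
Share of clustered (circles), paired (squares) and solitary (diamonds) c-Fos sites that lay inside a peak of each list that was not behind the combined list, in percent, with 1 row per library and Wilson 95% intervals as bars. Shares differ far more between libraries, from 14.8% to 75.6% for FosB after KCl at clustered sites, than between clustered and solitary sites of a library.

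In silenced neurons the clusters were almost free of AP-1 peaks. Unstimulated sc52 lists held 2 clustered sites (0.493%, all sites 0.913%) in sample 3 and 1 (0.246%, all sites 0.357%) in sample 4. Unstimulated sc7202 held 1 (0.246%, all sites 0.206%) in sample 3 and 0 in sample 4 (all sites 0.00794%). FosB held 0 in sample 3 (all sites 0.246%) and 1 in sample 4 (0.246%, all sites 1.03%), and JunB held 3 (0.739%, all sites 1.88%). A count of 0 of 406 sites allows a share of up to 0.739% by a floor of 3 counts, and up to 0.937% by the Wilson interval. The sites were chosen in KCl libraries, and the unstimulated lists were shorter than the KCl lists of the same antibody and culture.

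For FosB the change with depolarisation at the clusters could be set out by library. The clustered share held was 25.9% and 14.8% after KCl, a mean of 20.3% ± 7.84, against 0% and 0.246% in unstimulated neurons, a mean of 0.123% ± 0.174 (SD, n = 2 each). The conditions did not overlap. The difference was 20.2 points, and the exact two-sided permutation test gave p = 0.333, the smallest value for 2 against 2. At solitary sites the same difference was 19.4 points. The KCl lists held 10898 and 4899 peaks and the unstimulated lists 4229 and 2041, and with lists of the same length the difference at clustered sites was 7.51 points. It was 9.11 points with peak scores of at least 100 and 42.2 points among sites in all 4 KCl sc52 lists. The sites were chosen in KCl c-Fos libraries, some of them of the same cultures. The difference is therefore a description, and nothing is concluded from its p-value.

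Few clustered sites were listed in libraries given c-Fos shRNA. With sc52, 21 clustered sites (5.17%) were held in sample 5, against 4.79% of solitary and 5.09% of all sites, and 1 (0.246%) in sample 6, against 0.413% of solitary and 0.437% of all sites. Of the clustered sites held with control shRNA, 21 of 387 (5.43%) were also held under c-Fos shRNA in sample 5 and 1 of 353 (0.283%) in sample 6, and among solitary sites these shares were 5.17% and 0.494%. The mean difference between clustered and solitary sites was 0.108 ± 0.39 points (SD, n = 2), higher in 1 of 2 libraries, with p = 1 in the exact sign-flip test, and its sign changed under 8 of 15 alternative settings. The control shRNA libraries had chosen the sites, so the loss itself is a description.

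Under FosB shRNA fewer clustered sites lay in FosB peaks in both cultures. The FosB list held 99 (24.4%) in sample 5 and 78 (19.2%) in sample 6 under FosB shRNA, against 307 (75.6%) and 213 (52.5%) with control shRNA. The means were 21.8% ± 3.66 and 64% ± 16.4 (SD, n = 2 each), the groups did not overlap, and the difference of -42.2 points gave p = 0.333 in the exact two-sided permutation test, the smallest possible. Solitary sites averaged 18% ± 2.49 under FosB shRNA and 60.2% ± 18.4 with control shRNA, also a difference of -42.2 points. The lists held 9941 and 7180 peaks under FosB shRNA and 22933 and 14139 with control shRNA, and with lists of the same length the difference at clustered sites was -20.8 points. The control shRNA sc52 libraries of the same cultures had helped to choose the sites, so this difference is a description and nothing is concluded from its p-value.

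In the lists made under FosB shRNA, the share of clustered sites was above that of solitary sites in both cultures. These lists held 24.4% of clustered sites against 19.8% of solitary and 20.7% of all sites in sample 5, and 19.2% against 16.3% of solitary and 16.7% of all sites in sample 6. Paired sites stood close to the clustered ones, at 24.9% in sample 5 and 18.6% in sample 6. The intervals of the difference between clustered and solitary sites were 0.596 to 9.06 points in sample 5 and -0.667 to 7.11 in sample 6. The mean difference was 3.77 ± 1.17 points (SD, n = 2), higher at clustered sites in 2 of 2 libraries, with p = 0.5 in the exact two-sided sign-flip test over libraries, the smallest possible. Unlike the other differences over libraries, this one was not run under the alternative settings. Of the clustered sites held with control shRNA, 95 of 307 (30.9%, interval 26% to 36.3%) were also held under FosB shRNA in sample 5 and 71 of 213 (33.3%, 27.3% to 39.9%) in sample 6. The same shares were 25.7% and 30.4% for solitary sites and 30.5% and 33.4% for paired sites.

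Distal H3K27ac, the mark of active enhancers away from promoters, was listed more often at clustered than at solitary sites. After KCl, 123 clustered sites (30.3%, 26% to 34.9%) lay in a distal H3K27ac peak, against 18.7% of solitary sites (17.9% to 19.4%) and 20.3% of all sites, a difference of 11.6 points (7.29 to 16.3). In unstimulated neurons 75 clustered sites (18.5%) did, against 12.6% of solitary and 13.6% of all sites, a difference of 5.92 points (2.38 to 10). Paired sites stood between the other classes after KCl, at 27.3%, and stood at 18.2% in unstimulated neurons. The lists merge biological samples 1 and 2, so these differences have no replicate check.

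The difference was found both for distal peaks listed in the 2 conditions and for those listed only after KCl. A distal peak in both conditions covered 67 clustered sites (16.5%), against 10.5% of solitary and 11.4% of all sites. A distal peak only after KCl covered 56 (13.8%), against 8.17% of solitary and 8.81% of all sites, a difference of 5.62 points (2.56 to 9.35). A distal peak only in unstimulated neurons covered 7 (1.72%), against 2.05% of solitary and 2.08% of all sites. Non-distal H3K27ac peaks, listed genome-wide but left out of the distal list, covered 16 clustered sites (3.94%) after KCl, against 4.62% of solitary and 4.65% of all sites. The excess at clustered sites was thus in distal peaks present after KCl, and 260 clustered sites (64%) lay in no H3K27ac peak of either condition, against 74.6% of solitary and 73% of all sites.

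**Figure D3:**
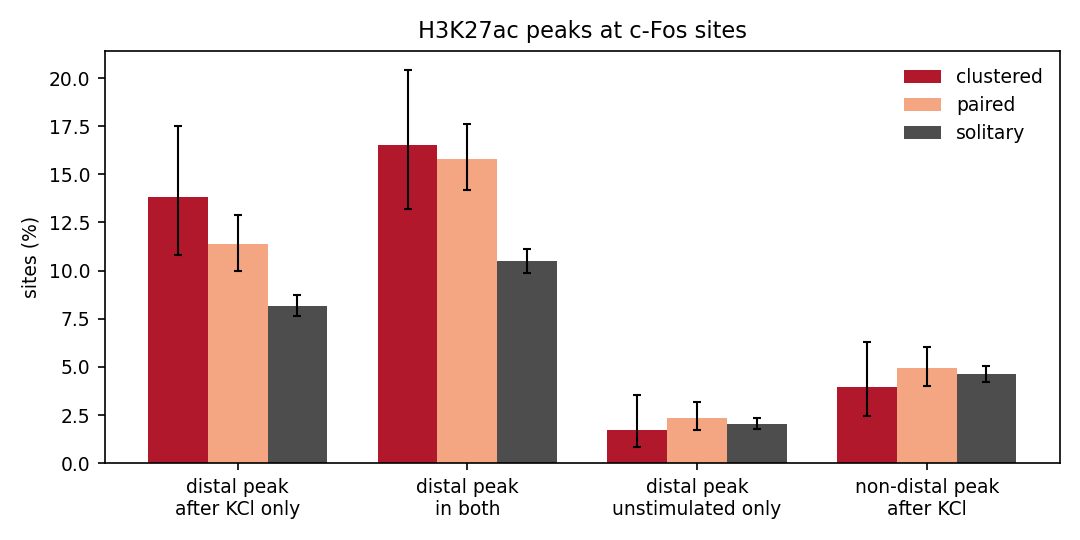
Share of clustered, paired and solitary c-Fos sites in percent (vertical axis) that lay in a distal H3K27ac peak after KCl only, in both conditions or in unstimulated neurons only, and in a non-distal peak after KCl, with Wilson 95% intervals. Clustered sites stand above solitary ones for distal peaks after KCl only (13.8% against 8.17%) and in both conditions (16.5% against 10.5%).

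The difference in distal H3K27ac had the same sign among sites in 2, 3 and 4 of the sc52 lists. These lists chose the members, and no intervals were made within these levels. Among sites in exactly 2 of the 4 sc52 lists, a distal KCl peak covered 23 of 133 clustered sites (17.3%) and 12.3% of solitary sites, a difference of 4.98 points. With 3 lists the shares were 33.8% of 148 clustered and 18% of solitary sites, and with all 4 lists 41% of 122 clustered and 29.1% of solitary sites. For distal peaks only after KCl, the shares at clustered and solitary sites were 8.27% and 4.72% with 2 lists and 18.2% and 7.67% with 3. With all 4 lists they were 14.8% and 14.2%, a difference of 0.507 points.

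Distal H3K27ac peaks covered more of the bases around clustered than around solitary sites. Within 5 kb of clustered sites, leaving out 500 bp around every site, distal H3K27ac peaks covered 11.7% of bases after KCl. They covered 9.64% around paired and 5.8% around solitary sites. In unstimulated neurons they covered 6.76% around clustered and 4.66% around solitary sites, and more, 7.13%, around paired ones. In the same flanks, FosB peaks of KCl sample 3 covered 0.0932% around clustered and 0.105% around solitary sites. They covered 0.0429% and 0.0384% in KCl sample 4, 1.8% and 1.27% in control shRNA sample 5, and 0.172% and 0.17% in control shRNA sample 6. Around clustered sites these values rest on 9, 3, 34 and 12 FosB peak centres in the same order. Peaks of sc7202 covered 1.39% around clustered and 1.18% around solitary sites in KCl sample 3. In KCl sample 4, sc7202 peaks covered 0.955% and 0.695%, and JunB peaks 0.935% and 0.782%. The part of the surrounding acetylation in the shares at the sites was not tested. The KCl distal peaks that held a site had a median width of 2855 bp at clustered and 2449 bp at solitary sites. Such peaks reach past the 500 bp left out, so the flank coverage partly repeats the shares at the sites. How much of it does so was not tested.

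After KCl, neighbouring sites of a cluster tended to share their acetylation state. Among the 114 trios, 52 had no site in a distal KCl peak, 31 had 1, 21 had 2 and 10 had all 3. Over all 129 clusters, 72 had at least 1 such site and 11 had all of their sites in such peaks. Given that a clustered site lay in a distal KCl peak, its neighbour did so in 55.6% of cases, against 19.5% when it did not. Of the 47 neighbour pairs with both sites acetylated, 21 lay in 1 and the same peak: 10 of 10 pairs under 2 kb apart, 11 of 17 pairs 2 kb to under 5 kb apart, and 0 of 20 pairs at least 5 kb apart. At 5 kb or more, where no pair shared a peak, the neighbour was acetylated in 52.6% of cases given an acetylated site and in 18.8% given one that was not. For distal peaks only after KCl, these shares at 5 kb or more were 44.4% and 8.62%. They rest on 8 pairs with both sites in such peaks, each counted from both sites. For unstimulated distal peaks the shares were closer, 31.7% and 15.2% over all neighbours. At 5 kb or more they were 26.1% and 15.3%, with 6 pairs in which both sites were held. No intervals were made for these shares.

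In the AP-1 lists, neighbours of held and of unheld sites had closer shares. At 5 kb or more, the neighbour of a site held by FosB in control shRNA sample 5 was held in 72.4% of cases, against 79.7% for the neighbour of a site that was not. In control shRNA sample 6 the shares were 51.7% and 58.7%, in KCl sample 3 29.3% and 27.5%, and in KCl sample 4 15.8% and 13.9%. For JunB they were 62.8% and 66.7%. The difference between H3K27ac and the AP-1 lists in this respect was not tested. Sites inside a cluster and its end sites had like values: a distal KCl peak covered 31.1% of 148 inner and 29.8% of 258 end sites, JunB held 61.5% and 67.1%, and an increasing enhancer lay near 10.8% and 8.91%.

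The authors classed distal enhancers marked by CBP and H3K4me1 by how their H3K27ac changed with KCl. The label of these enhancer positions credits them to Kim et al., and no CBP or H3K4me1 library was among the samples here. A position of the full list of CBP and H3K4me1 enhancers lay within 500 bp of 125 clustered sites (30.8%), against 22.5% of solitary and 24% of all sites, and paired sites were at 31%. Enhancers with increasing H3K27ac lay near 39 clustered sites (9.61%, 7.11% to 12.9%), against 4.16% of solitary sites (3.8% to 4.56%) and 4.8% of all sites, a difference of 5.44 points (2.91 to 8.72) and a ratio of 2.31. Paired sites were at 7.38%. Enhancers with constant H3K27ac lay near 3 clustered sites (0.739%, solitary 1%, all 1.03%), those with decreasing H3K27ac near 2 (0.493%, solitary 0.635%, all 0.651%) and those with no H3K27ac near 15 (3.69%, solitary 4.47%, all 4.48%). Of the 4 classes, the increasing one had a difference between clustered and solitary sites whose interval lay above 0. The classes exist once for the study, so there is no replicate check, and the class itself rests on the H3K27ac libraries described above.

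The mix of classes differed accordingly. Of the 59 clustered sites near a classified enhancer, 66.1% (53.4% to 76.9%) were near an increasing one, against 40.5% (37.6% to 43.5%) of 1068 solitary sites. Enhancers with no H3K27ac made up 25.4% (16.1% to 37.8%) at clustered and 43.5% (40.6% to 46.5%) at solitary sites. Paired sites lay between for both classes, at 52.4% for the increasing one and 33.3% for the one with no H3K27ac. Read from the enhancers, 41 of the 621 increasing enhancers near any c-Fos site were near a clustered one (6.6%, 4.9% to 8.83%). The like numbers were 3 of 137 constant (2.19%, 0.747% to 6.24%), 2 of 82 decreasing (2.44%, 0.671% to 8.46%) and 15 of 568 without H3K27ac (2.64%, 1.61% to 4.31%). The intervals of the constant and decreasing classes overlapped that of the increasing one. Within levels of c-Fos reproducibility, an increasing enhancer lay near 6.02% of clustered and 1.87% of solitary sites in 2 sc52 lists, 9.46% and 3.98% in 3 lists, and 13.9% and 7.98% in 4 lists. With chains joined at 5 kb or less the difference was 1.55 points, resting on 6 of 99 clustered sites.

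**Figure D4:**
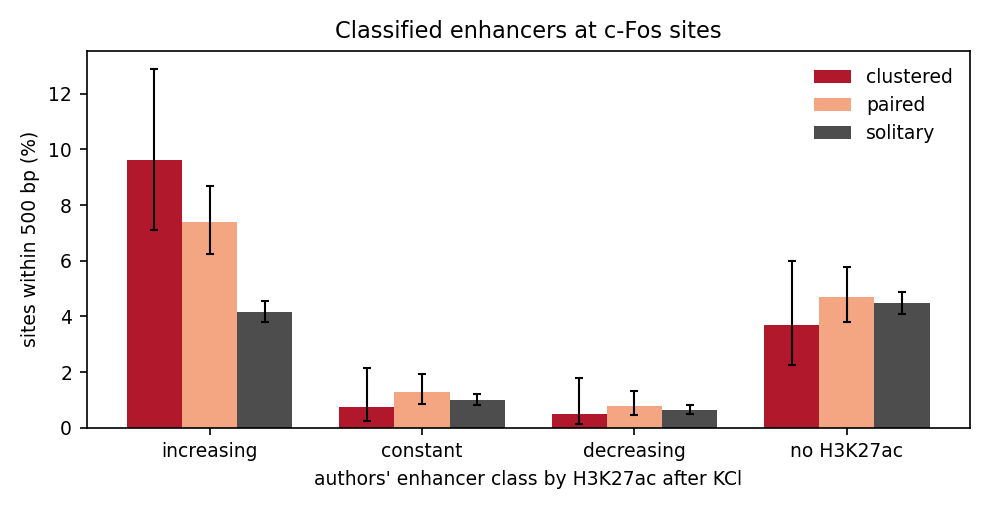
Share of clustered, paired and solitary c-Fos sites in percent (vertical axis) with an enhancer of each of the authors' 4 classes within 500 bp, with Wilson 95% intervals. The increasing class stands out, at 9.61% of clustered, 7.38% of paired and 4.16% of solitary sites.

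Sites near increasing enhancers were found in a minority of clusters. In 30 of the 129 clusters at least 1 site lay within 500 bp of one: 23 had a single such site, 6 had 2 and 1 had 4. Enhancers inside a cluster but more than 500 bp from each of its sites were not counted. In 27 clusters every classified enhancer near a site was an increasing one, and in 14 only the class without H3K27ac lay near a site. Constant and increasing enhancers lay near sites of 2 clusters, only decreasing ones near sites of 2 and only a constant one in 1. In 1 more cluster, an increasing one and one without H3K27ac lay near sites. The other 82 clusters had no classified enhancer within 500 bp of any site.

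The cluster with 4 increasing enhancers lay at chr17:70936329-70950030 and spanned 13701 bp. Each of its 4 sites was near an increasing enhancer and inside a distal H3K27ac peak after KCl, and no unstimulated H3K27ac peak held any of them. The first pair of sites shared the KCl peak chr17:70936328-70939812 (authors' score 519.01) and the other pair shared chr17:70943945-70950931 (score 972.74). sc7202 held 4 of its sites in sample 3 and 3 in sample 4, JunB held 4 of 4, and FosB held 4 of 4 in control shRNA sample 5 and none in the other KCl FosB lists. Narrow FosB peaks of KCl sample 3, control shRNA sample 6 and FosB shRNA samples 5 and 6 lay beside sites of this cluster without covering them. Peaks of c-Fos shRNA sample 5 and of unstimulated FosB sample 3 also lay between its sites. No c-Fos shRNA, FosB shRNA or unstimulated AP-1 list held a site of it. These scores are the authors' and rank peaks within a list only.

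The cluster at chr2:157304648-157322514, one of those with 5 sites, had a CBP and H3K4me1 enhancer near every site, of which the first was classed as increasing. The first 3 of its sites lay in distal KCl peaks, chr2:157303493-157306283 (score 122.95) and chr2:157312547-157314393 (score 135.82, with 2 sites inside), and none lay in an unstimulated peak. Between them, at chr2:157307166-157309786, an unstimulated distal peak with a score of 1045.96 and its KCl counterpart held no site. sc7202 held 5 of 5 sites in both samples, JunB held 3, and FosB held 2 in KCl sample 3, 0 in KCl sample 4, 5 in control shRNA sample 5 and 3 in control shRNA sample 6. This cluster thus had H3K27ac peaks listed only after KCl at 3 sites, beside a region acetylated in both conditions.

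**Figure D5:**
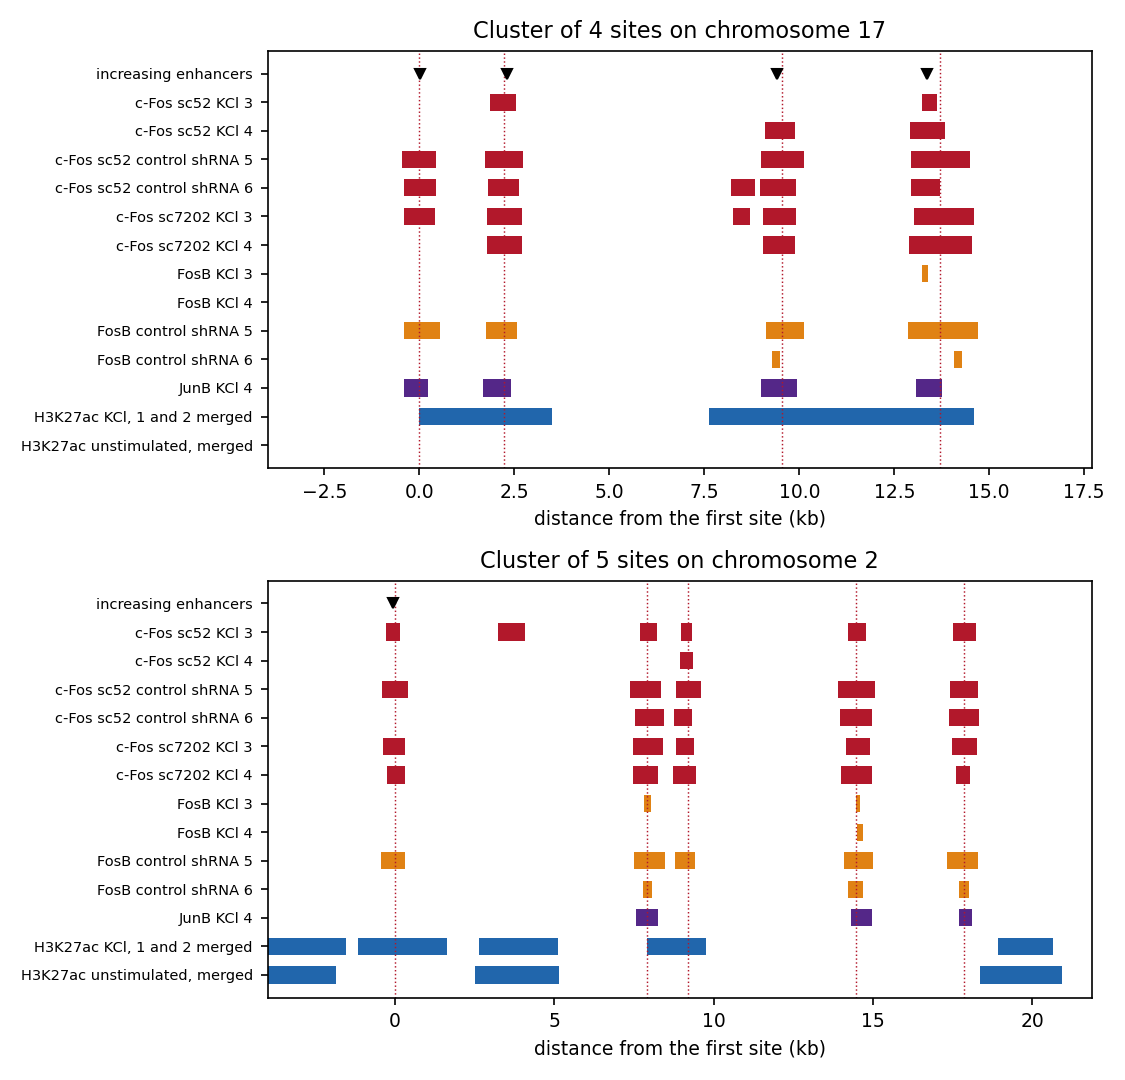
Maps of the 4-site cluster on chromosome 17 (top) and the 5-site cluster on chromosome 2 (bottom), with distance from the first site in kb on the horizontal axis and 1 row per peak list. Bars are peaks, dotted lines are c-Fos sites and triangles are increasing enhancers. On chromosome 17 a KCl H3K27ac peak covers every site and the unstimulated row is empty, while on chromosome 2 both H3K27ac rows hold a peak between the first and second sites.

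The other clusters of 5 sites had fewer sites in distal KCl peaks, 1 or 2 of 5. At chr8:36663047-36679174, sc7202 held 5 sites in sample 3 and 3 in sample 4 and JunB held none, and 1 site lay in a distal KCl peak (score 126.84) with no unstimulated peak. Between its sites, 4753 bp from the first, lay an increasing enhancer more than 500 bp from any site. A distal KCl peak (score 162.98), a KCl JunB peak, an unstimulated JunB peak and a FosB peak of KCl sample 4 covered this enhancer but no site. So did FosB peaks of FosB shRNA samples 5 and 6, while neither control shRNA FosB list had a peak over it. At chr13:52577325-52597474, 1 site lay in a distal peak in both conditions and JunB held 2. At chr14:106062204-106083727, 2 sites lay in distal peaks that were listed in both conditions, with scores of 198.83 and 609.21 after KCl and of 132.37 and 596.35 in unstimulated neurons, and JunB held 3. None of these 3 had a site near a classified enhancer, though 1, 1 and 3 of their sites, in that order, lay near a CBP and H3K4me1 enhancer without a class. Each cluster of 5 sites thus had at least 1 site in a distal KCl peak and at least 2 sites outside one.

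Among clusters of 4 sites, the shortest lay at chr18:65205596-65213635. The last 3 of its sites shared a KCl distal peak 6161 bp wide (score 651.46), and no unstimulated H3K27ac peak held a site. The next, at chr8:14463525-14473305, was held by JunB at 4 of 4 sites and had 1 site in a KCl distal peak (score 133.86) and none in an unstimulated one.

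Further clusters rich in increasing enhancers had sites acetylated in both conditions beside sites acetylated only after KCl. At chr4:32478410-32492517, the last 2 of 3 sites were near increasing enhancers and in KCl distal peaks with scores of 172.80 and 411.58, and the middle one also lay in an unstimulated peak with a score of 52.12. At chr12:82938726-82946087, the first 2 of 3 sites were near increasing enhancers and in KCl distal peaks with scores of 302.02 and 148.36, and the first also lay in an unstimulated peak with a score of 52.30. JunB held 3 sites of the cluster on chromosome 4 and 2 of the one on chromosome 12.

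The shortest cluster of all, at chr9:112090566-112093146, differed from these. Its 3 sites within 2580 bp lay in a non-distal H3K27ac peak after KCl, chr9:112085404-112095649 (score 3100.00), and the first 2 also in an unstimulated one, chr9:112086488-112092661 (score 1028.40). The last 2 sites were near increasing enhancers, were held by all 6 KCl c-Fos lists and by all 4 KCl FosB lists, and lay in JunB peaks. Under FosB shRNA the FosB lists held 2 of its sites in sample 5 and 2 in sample 6, and with c-Fos shRNA, sc52 peaks held 1 in sample 5 and 0 in sample 6. It was the only one of the 10 named clusters at which a c-Fos shRNA list held a site.

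Shares by the size of the chain rest on few sites beyond trios. A distal KCl H3K27ac peak covered 18.7% of solitary sites, 27.3% of sites in pairs, 30.1% in trios, 29.5% of the 44 sites in clusters of 4 and 35% of the 20 sites in clusters of 5, where the interval ran from 18.1% to 56.7%. Distal peaks only after KCl covered 8.17%, 11.4%, 12.3%, 22.7% and 20% in the same order. Distal peaks of both conditions covered 10.5%, 15.8%, 17.8%, 6.82% and 15%, and all unstimulated distal peaks 12.6%, 18.2%, 20.2%, 6.82% and 15%, so these shares were lower in clusters of 4 and 5 than in trios. Increasing enhancers lay near 4.16%, 7.38%, 9.36%, 13.6% and 5%, the last of these resting on 1 site. For JunB the shares were 66.5%, 68.3%, 64.6%, 79.5% and 40%, without a common direction.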

How the data were processed

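Peak lists of c-Fos, FosB, JunB and H3K27ac ChIP-seq and the authors' lists of single positions were used as deposited. Reads were aligned with BWA to mm9, per the submitters' processing notes, without a version. The deposited peak names start with MACS, for which no version or control library was given in the sources used here. The score of a peak is the authors' value and was used to rank or filter peaks within a list. AP-1 lists come from 1 library each, and H3K27ac lists from biological samples 1 and 2 merged, per the labels. The combined c-Fos sites and the enhancer classes are positions without width, and the way the authors derived them was not given in the sources used here.

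Chains were built from gaps of 10 kb or less, and a site was held when it lay inside a peak, or near an enhancer within 500 bp. Libraries were compared by the exact sign-flip test on differences of shares, and conditions by the exact permutation test, both two-sided. The labels give libraries of 1 culture the same biological sample number, which is the basis of the replicate block. The alternatives were other join distances, cluster sizes, peak and score rules, subsets of sites, libraries left out and the block. The named clusters were the 6 with the most sites (ties by shorter span, then position) and the 4 with the most increasing enhancers within 500 bp of a site (ties by sites, then span). The members and lists were chosen with earlier results of these data known. Genes, DNA motifs and sequences were not analysed here, because no genome of build mm9 was used. Steps were tested on simulated data. Python 3.11.15, numpy 2.4.6, scipy 1.17.1 and matplotlib 3.10.9 were used.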

Additional observations from a re-analysis of the deposited data

How the results depend on the processing

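The signs of the H3K27ac and increasing enhancer differences were the same under the 13 and 12 alternatives run. The distal H3K27ac difference ranged from 4.98 to 15.8 points, and its lowest value, 4.98, came from sites in exactly 2 KCl sc52 lists, a setting chosen after seeing the data. The increasing enhancer difference ranged from 1.55 (join distance of 5 kb, 99 clustered sites) to 6.77. With each cluster counted once these differences were 11.5 and 5.42. The FosB difference of 2.06 reversed among sites in all 4 KCl sc52 lists (-1.67, exact p = 0.5) and outside H3K27ac (-0.492, exact p = 0.875), and leaving out each biological sample gave 0.976 to 3.04. The JunB difference of -1.43 moved to -6.38 outside H3K27ac, with a range of -6.38 to 0.736, and lists of the same length could not be made for its single list. The sc7202 difference ranged from 0.21 to 8.15, with 3.09 to 5.7 when a biological sample was left out. The c-Fos shRNA difference of 0.108 reversed with a join distance of 5 kb (-0.139), clusters of at least 4 sites (-1.82), sites in all 4 sc52 lists (-0.973), lists of the same length (-0.156), sites in distal H3K27ac (-0.199), sites outside it (-0.937) and all other sites in place of solitary ones (-0.0557, chosen after seeing the data), and ran from -0.167 to 0.384 with a biological sample left out. The cause was not tested.

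With the replicate block, the FosB differences at clustered sites were 20.2 points for KCl against unstimulated and -42.2 points for FosB shRNA against control shRNA, each with exact p = 0.5, the smallest for 2 pairs, and the block changed no call. Over all alternatives they ran from 7.51 to 42.2 and from -51.2 to -20.8 points, with 7.51 and -20.8 from lists of the same length, and with a biological sample left out from 14.5 to 25.9 and from -51.2 to -33.3. None of the designs over libraries could reach p under 0.05. Unknown depth limits every share, since a longer list holds more sites.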
